A study of Homo sapiens with 46 samples.

Results

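How transcripts divide between cytoplasm and nucleus was compared between human pluripotent stem cells (hPSC) and endoderm made from them. The comparison used 12 of the 46 libraries of the series: the cytoplasm and the nucleus libraries of each cell type, 3 per group, chosen by their labels. The hPSC were cells of H1, an established human embryonic stem cell line, grown on Matrigel in mTeSR1 medium. Endoderm was made from the same line in RPMI medium with 100 ng/ml Activin A, WNT3A and 0.5% FBS, and collected after 5 days. In both cell types, cytoplasm was the supernatant of a mild NP-40 lysis spun through sucrose, and the nucleus was the washed pellet. All lysis buffers contained α-amanitin, an inhibitor of RNA polymerase II. The code "Nei" in the column names was taken to mean nucleus. The series comes from 1 cell line, and no label says that replicates were separate cultures or differentiations, so p-values measure only the spread between these libraries, which may be technical.

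A messenger RNA is made and spliced in the nucleus, leaves through the nuclear pore bound to the export receptor NXF1, and is translated in the cytoplasm. Transcripts that keep introns, and long noncoding RNAs such as MALAT1, are known to stay largely in the nucleus. Messenger RNAs of secreted and membrane proteins are translated on the endoplasmic reticulum (ER), which is joined to the outer nuclear membrane, and so they can stay with the nuclear pellet after a mild lysis. These are general facts, not results of these libraries.

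For each gene the measure was the log2 ratio of its scaled level in cytoplasm to that in nucleus. Levels are scaled CPM, the usual depth-normalised count unit, taken on library totals scaled by TMM, a method that sets the bulk of genes equal between libraries. The change of the ratio is the endoderm value minus the hPSC value, so a positive change means that the gene's RNA was placed more to the cytoplasm in endoderm. Each ratio is relative to the other genes of its library, and bulk libraries cannot tell fewer cells of a type from less RNA per cell.

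The library totals ran from 8329295 to 18360084 counts. Mitochondrially encoded RNA took 0.399% to 0.615% of the hPSC cytoplasm counts, 0.423% to 0.46% in endoderm cytoplasm, 13.1% to 15.3% in hPSC nucleus and 8.09% to 16.1% in endoderm nucleus. Endoderm nucleus replicate 1 stood apart: its TMM factor was 0.5404, against 0.8017 to 1.239 in the other libraries. Its Pearson's r of log2 CPM with the other endoderm nucleus libraries was 0.9558 and 0.9634, and each other replicate pair reached at least 0.9734. Of 10 definitive endoderm markers, 10 had a row in the endoderm table (summed level 462 to 626 CPM of the library total in cytoplasm) and 1 had a row in the hPSC table (summed level 0 to 0.265 CPM). SOX17, a regulator that defines endoderm, averaged 158 CPM in endoderm cytoplasm. Pluripotency markers remained in endoderm, with a summed level of 4770 to 5390 CPM in cytoplasm against 6630 to 7220 CPM in hPSC. Among markers of other cell types, APOA1, an apolipoprotein of liver and yolk sac endoderm, averaged 979 CPM in endoderm cytoplasm and 6410 CPM in endoderm nucleus and had no row in the hPSC table, and GATA3, a trophoblast and amnion marker, averaged 134 CPM in endoderm cytoplasm. APOA1 was the 1 of 8 extraembryonic endoderm markers with a row in the endoderm table, where AFP, TTR, APOB and SOX7 had none. Of 8 amnion and trophoblast markers, 3 had a row there: GATA3, TFAP2A and ISL1. KRT7, GABRP and VTCN1, of the same list, had a row in the hPSC table only. The part of such markers in the results was not tested.

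The ratio changed for 3033 of 11566 genes tested (26.2%), at an edgeR adjusted p under 0.05. It was higher in endoderm for 1617 genes (14.0%) and lower for 1416 (12.2%). The split between the directions depended on the scaling: total counts without TMM gave 2821 higher and 252 lower, upper-quartile factors 2026 and 865, and the authors' TPM 3747 and 235. These scalings moved the median change of all genes up by 0.56, 0.20 and 0.59, so a direction is relative to the bulk of genes, and list counts under total counts are given where their balance flips. Among called genes the median size of the change was 1.18 on the log2 scale, with a median standard error (SE) of 0.30. The 9 cytoplasm-nucleus library pairs of endoderm and the 9 of hPSC did not overlap for 3628 genes (31.4%).

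Only genes with a row in both cell types' tables could be compared, 11760 genes. The hPSC table had 3355 genes without a row in the endoderm table, and the endoderm table had 1884 without a row in the hPSC table. SOX17, GATA4, GATA6, FOXA2 and EOMES were among the latter, so the ratio of these endoderm regulators has no hPSC counterpart.

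The called genes were sorted by their ratio within each cell type, where 60.3% of genes differed between cytoplasm and nucleus in hPSC and 69.4% in endoderm. In 1323 of the 3033 genes the RNA leaned to the same fraction in both cell types but to a different degree. In 1525 genes the lean passed the test in 1 cell type, endoderm in 1100 of them and hPSC in 425. A further 155 genes (5.11%) turned, with the lean called in both cell types and in opposite directions, and 30 passed in neither. More genes differed between the cell types in the nucleus (60.0% of genes) than in the cytoplasm (40.1%). In 75.7% of the genes with a changed ratio, the level in the nucleus differed more between the cell types than the level in the cytoplasm. This share was not taken over all genes, so it does not set the changed genes apart.

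**Figure D1:**
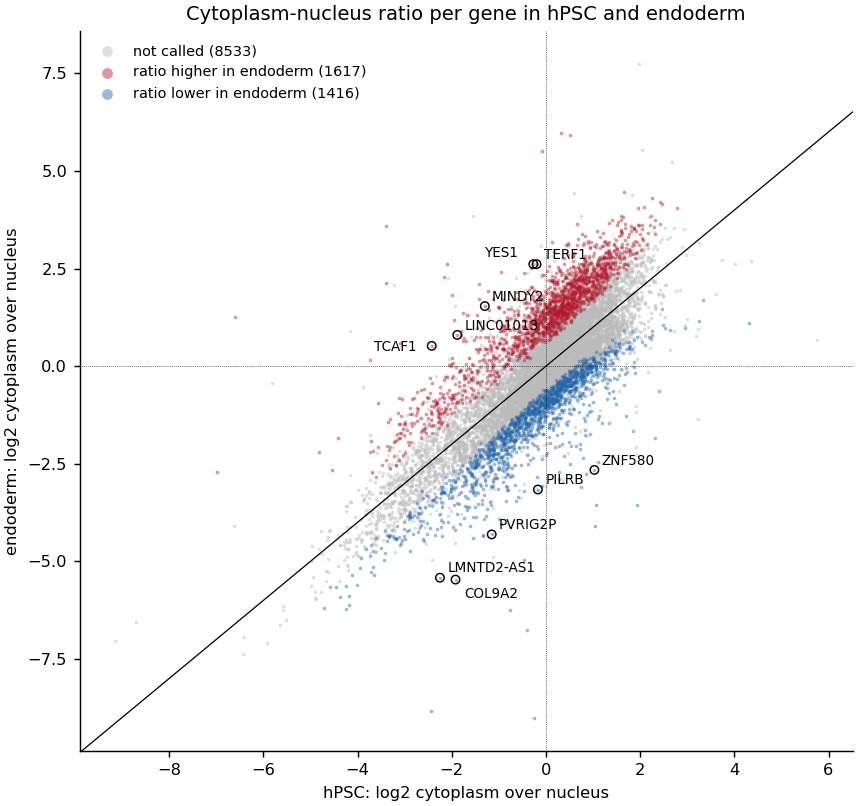
Log2 cytoplasm-nucleus ratio of each of 11566 genes in hPSC (x axis) and endoderm (y axis). Red points are the 1617 genes with a higher and blue points the 1416 genes with a lower ratio in endoderm, circles mark the 5 largest changes named in each direction, and the diagonal line marks an equal ratio.

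The change of the ratio followed the base composition of the transcripts. Across the 11374 genes with a GENCODE release 29 transcript, Spearman's rho between the change and the GC content (the share of G and C bases) was -0.704. Genes are not independent replicates, and the points share libraries, so this is a description. Genes were put in 10 bins of GC content. In the lowest bin, at most 39.5% GC, the median change was 1.11, and 583 of 1138 genes were called higher and 10 lower. In the highest bin, at least 62.2%, the median change was -0.76, and 2 of 1138 were called higher and 444 lower. Both cell types showed the trend: from the lowest to the highest bin, the median ratio went from 0.55 to -0.33 in hPSC and from 1.64 to -1.06 in endoderm. The level in the nucleus carried most of the difference between the cell types, with a median endoderm minus hPSC value of -0.92 in the lowest bin and 0.72 in the highest, against 0.11 and -0.06 in the cytoplasm.

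**Figure D2:**
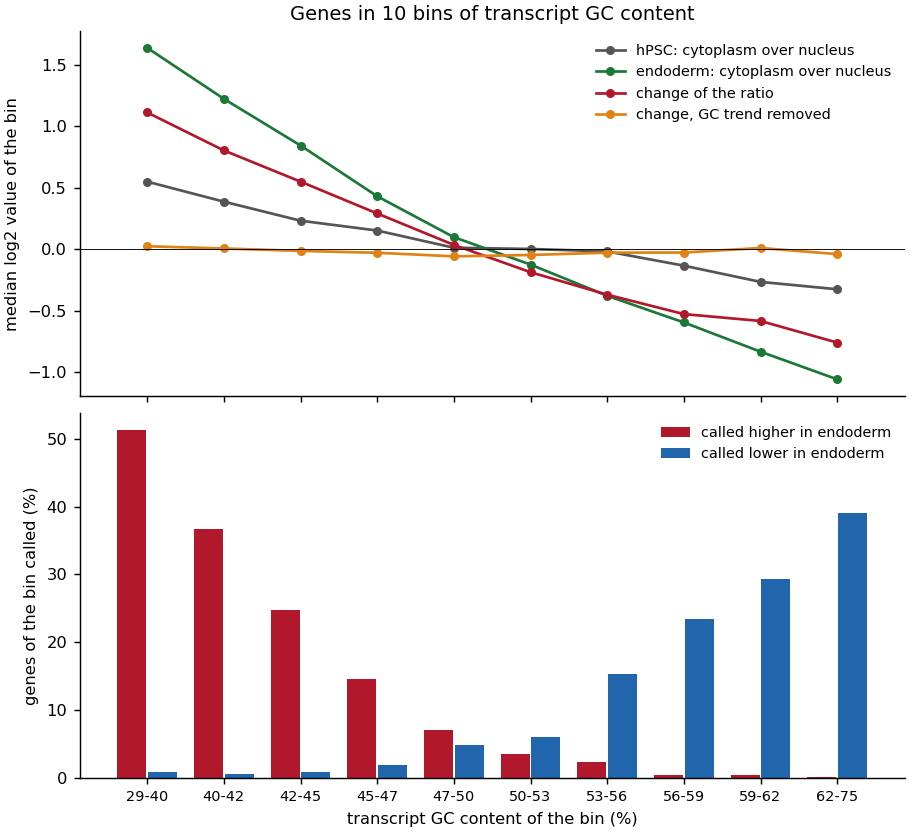
Genes in 10 bins of transcript GC content (x axis, percent). The upper panel shows median log2 values of each bin and the lower panel the percent of genes called in each direction. The change of the ratio falls from 1.11 in the lowest bin to -0.76 in the highest. With the GC trend removed it is near 0 throughout, which follows from how that fit was made.

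The first 90 coding bases of 6 genes are shown because they let the composition be read directly: the 3 coding genes with the largest named rises, then the 3 with the largest named falls. Sequences are GENCODE release 29 transcripts (GRCh38), from the start codon, with G or C at the last base of a codon in capitals.
TCAF1: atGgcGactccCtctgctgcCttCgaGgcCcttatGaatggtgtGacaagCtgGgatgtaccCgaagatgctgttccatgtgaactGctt
YES1: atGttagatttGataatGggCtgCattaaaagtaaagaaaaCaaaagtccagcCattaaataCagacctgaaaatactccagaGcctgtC
MINDY2: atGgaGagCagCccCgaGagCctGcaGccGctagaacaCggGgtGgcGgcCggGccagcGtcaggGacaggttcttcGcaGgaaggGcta
ZNF580: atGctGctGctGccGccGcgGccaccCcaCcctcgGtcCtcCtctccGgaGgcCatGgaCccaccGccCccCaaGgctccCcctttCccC
COL9A2: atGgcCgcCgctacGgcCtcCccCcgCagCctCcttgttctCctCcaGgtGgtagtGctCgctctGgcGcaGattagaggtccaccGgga
PILRB: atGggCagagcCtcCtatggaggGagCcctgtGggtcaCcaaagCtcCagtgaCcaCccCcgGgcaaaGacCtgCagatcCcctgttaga
Of the 30 codons shown, 13 end in G or C in TCAF1, 10 in YES1, 21 in MINDY2, 24 in ZNF580, 20 in COL9A2 and 18 in PILRB. MINDY2 shows that the start of a coding sequence need not stand for the transcript: its whole transcript of 9238 bases, of which 7293 are 3′ untranslated region, holds 37.8% GC. Over whole transcripts the other rises held 46.6% (TCAF1) and 36.4% (YES1), and the falls 61.7% (ZNF580), 65.2% (COL9A2) and 59.7% (PILRB).

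Other transcript features followed the change less closely. Spearman's rho was -0.636 with the GC content of the last codon base (10640 coding genes), 0.337 with the length of the 3′ untranslated region, 0.289 with transcript length and 0.116 with coding length. With coding genes in 5 bins of 3′ untranslated length, in the longest bin, at least 2593 bases, 613 of 2125 were called higher and 88 lower (147 and 80 with the GC trend removed). In the shortest, at most 283 bases, 141 of 2128 were called higher and 392 lower (88 and 90 with the GC trend removed).

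The GC trend differed between libraries of 1 group as well as between groups. Taking each gene's level relative to its mean over the 24 hPSC and endoderm libraries of all 4 fractions, rho with GC content was 0.732, 0.572 and 0.545 in the 3 endoderm nucleus libraries. It was 0.215, 0.203 and 0.267 in hPSC nucleus, -0.099 to -0.161 in hPSC cytoplasm and -0.091 to -0.309 in endoderm cytoplasm. The hPSC chromatin libraries gave -0.277, -0.231 and 0.371, so 1 of 3 replicates went the other way. They enter no test here, but they enter the hPSC chromatin averages given for single genes below. The standard deviation of those averages was 65.1 CPM for TCAF1, 114 for YES1, 906 for TERF1, 34.2 for RRM2B and 37.5 for MALAT1. Without endoderm nucleus replicate 1, the library with the highest value, rho between the change of the ratio and GC content was -0.584.

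**Figure D3:**
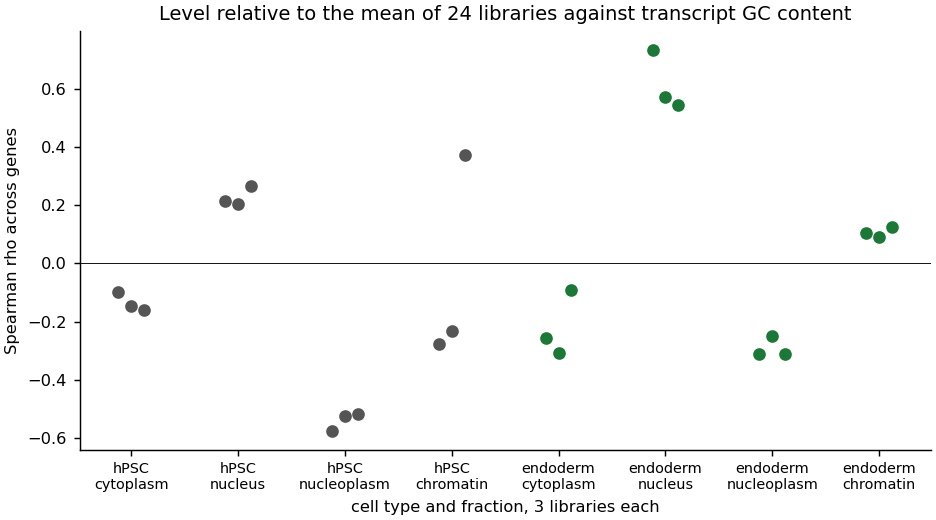
Spearman's rho across genes (y axis) between transcript GC content and a gene's level in a library relative to its mean over 24 libraries, 3 libraries per cell type and fraction (x axis). The endoderm nucleus libraries lie highest, at 0.545 to 0.732, and 1 hPSC chromatin library at 0.371 lies apart from the other two.

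Whether the trend arose in the cells or in making the libraries was not tested. An alternative fit, chosen after the trend was seen, removed from each library its smooth trend of level on GC content. It called 1030 of 11374 genes (9.06%), 530 higher (4.66%) and 500 lower (4.4%). Of the 3033 genes, 753 were called in this fit too, each in the same direction, and 128 changed sign. Values with the GC trend removed are given beside the called genes below, with their edgeR adjusted p or the words "not called" where the call was lost.

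The genes named first are the 12 largest rises and 12 largest falls among the 2393 called genes with a level of at least 10 scaled CPM and no overlap of the library pairs. Except for PILRB, each of the 24 was also called with the GC trend removed and in each of the 12 fits that left out 1 library.

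Among the rises, TCAF1, a regulator of TRP ion channels, went from a ratio of -2.43 to 0.52, the latter not called within endoderm. Its levels in the 3 libraries were 8.42, 11.6 and 11.1 scaled CPM in hPSC cytoplasm, 48.0, 62.7 and 57.8 in hPSC nucleus, 73.5, 58.8 and 42.6 in endoderm cytoplasm and 26.5, 52.7 and 42.5 in endoderm nucleus. The hPSC cytoplasm libraries lie below all others. As CPM of the library total, TCAF1 averaged 29.5 in endoderm nucleus, 122 in nucleoplasm and 197 in chromatin. The hPSC averages were 52.4, 56.2 and 179. The ratio change was 2.95 ± 0.35 (SE; edgeR adjusted p = 0.000352), and 2.71 with the GC trend removed.

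YES1, a tyrosine kinase of the SRC family, fell in the nucleus. Its hPSC cytoplasm levels were 41.3, 54.4 and 54.3 scaled CPM and its hPSC nucleus levels 60.3, 61.4 and 59.1. In endoderm they were 87.4, 86.1 and 69.8 in cytoplasm and 8.25, 15.4 and 15.9 in nucleus. The endoderm nucleus libraries lie below the other 9. The other fractions fell less: as CPM of the library total, YES1 averaged 9.58 in endoderm nucleus, 59.5 in nucleoplasm and 72.5 in chromatin. The hPSC averages were 56.4, 93.5 and 186. The ratio change was 2.88 ± 0.30 (edgeR adjusted p = 0.000141) and 1.67 with the GC trend removed.

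TERF1, the telomere repeat binding factor and a gene that is high in pluripotent cells, changed by 2.81 ± 0.36 (edgeR adjusted p = 0.000352; 2.07 with the GC trend removed). It stood at 489.8, 503 and 480.9 scaled CPM in hPSC cytoplasm and 533.6, 623.8 and 534.6 in hPSC nucleus. In endoderm it stood at 102.2, 202.2 and 178 in cytoplasm and 18.9, 35.5 and 24.4 in nucleus. Both fractions were lower in endoderm than in hPSC without overlap, and the nucleus more so: the endoderm minus hPSC value was -4.42 in nucleus and -1.61 in cytoplasm. As CPM of the library total, TERF1 averaged 19.0 in endoderm nucleus, 68.2 in nucleoplasm and 96.0 in chromatin. The hPSC averages were 527, 660 and 1910.

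RRM2B, a subunit of the p53-induced ribonucleotide reductase, moved in the nucleus as YES1 did. Its endoderm nucleus levels were 2.92, 5.83 and 5.63 scaled CPM against 37.7, 39.3 and 39.9 in hPSC nucleus, a log2 difference of -3.0. Its cytoplasm levels overlapped between the cell types, at 47.4, 64.0 and 42.6 in endoderm and 62.6, 69.3 and 66.0 in hPSC. As CPM of the library total, RRM2B averaged 3.5 in endoderm nucleus, 22.7 in nucleoplasm and 19.1 in chromatin. The hPSC averages were 36.4, 84.6 and 72.3. The ratio change was 2.64 ± 0.31 (edgeR adjusted p = 0.00031; 1.45 with the GC trend removed).

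EDIL3, a secreted matrix protein that binds integrins, leaned strongly to the nuclear pellet in hPSC and less in endoderm. It had 8.88, 8.28 and 8.25 scaled CPM in hPSC cytoplasm and 92.6, 102.7 and 103.4 in hPSC nucleus. In endoderm it had 8.27, 10.1 and 5.92 in cytoplasm and 9.52, 19.7 and 17.4 in nucleus. Its ratio went from -3.56 to -0.95, a change of 2.61, or 1.54 with the GC trend removed. As CPM of the library total, EDIL3 averaged 11.4 in endoderm nucleus, 69.1 in nucleoplasm and 15.8 in chromatin. The hPSC averages were 93.0, 84.5 and 45.9, so the nucleoplasm fell far less than the nucleus.

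The other rises were MINDY2 (2.84), a deubiquitinase, LINC01013 (2.68), a long noncoding RNA, SRGAP2C (2.61), a copy of the neuronal gene SRGAP2, TTC3 (2.59), a ubiquitin ligase, LRAT (2.53), which esterifies retinol, HINT3 (2.5), a nucleotide hydrolase, and CENPK (2.5), a centromere protein. Their changes ran from 1.05 (CENPK) to 2.04 (LINC01013) with the GC trend removed. In TTC3, as in TCAF1, the cytoplasm level moved more: the endoderm minus hPSC value of TTC3 was 2.66 in cytoplasm and 0.07 in nucleus. SRGAP2C shares most of its sequence with other copies, so its reads may be divided between them. Transcript GC content of these 12 rises ran from 32.9% (CENPK) to 46.6% (TCAF1).

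Among the falls, ZNF580, a zinc finger protein, changed most, by -3.69 ± 0.35 (edgeR adjusted p = 0.000103), and by -3.11 with the GC trend removed. Its levels were 25.5, 16.5 and 14.5 scaled CPM in hPSC cytoplasm and 10.1, 7.71 and 9.64 in hPSC nucleus. In endoderm they were 2.57, 2.23 and 2.82 in cytoplasm and 13.5, 15.6 and 19.1 in nucleus. ZNF580 turned, from a ratio of 1.03 in hPSC to -2.66 in endoderm.

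COL9A2, a chain of collagen IX, rose in both fractions of endoderm and far more in the nucleus. Its levels were 2.88, 3.33 and 3.08 scaled CPM in hPSC cytoplasm and 9.94, 14.4 and 11.1 in hPSC nucleus. In endoderm they were 55.9, 40.8 and 47.1 in cytoplasm and 3009, 1697 and 1652 in nucleus. The ratio change was -3.55 ± 0.37 (edgeR adjusted p = 0.000141), and -2.80 with the GC trend removed. In the other endoderm fractions it averaged 949 CPM of the library total in nucleoplasm and 1120 in chromatin.

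DNAJC15, a mitochondrial co-chaperone, is a fall whose transcript is poor in G and C (38.7%), against the general trend. It had 25.1, 17.9 and 15.0 scaled CPM in hPSC cytoplasm and 14.8, 11.9 and 17.6 in hPSC nucleus. In endoderm it had 183.4, 148.6 and 126.9 in cytoplasm and 450.7, 857.4 and 966.6 in nucleus. The change was -2.69 ± 0.39 (edgeR adjusted p = 0.000608) and -3.69 with the GC trend removed. When only transcripts with an Ensembl ID in both tables were summed, it was -0.78 and no longer called.

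CFAP410, a cilium protein, had 16.03, 9.19 and 10.6 scaled CPM in hPSC cytoplasm and 6.13, 8.42 and 6.86 in hPSC nucleus. In endoderm it had 26.1, 19.6 and 23.9 in cytoplasm and 95.7, 103 and 78.6 in nucleus. Its level rose in both fractions, and its ratio went from 0.72 to -1.99, a change of -2.72, or -1.97 with the GC trend removed. COQ4, needed for coenzyme Q synthesis, had 41.9, 28.0 and 31.4 scaled CPM in hPSC cytoplasm and 23.2, 22.3 and 27.1 in endoderm cytoplasm. In the nucleus it had 24.8, 18.0 and 22.3 in hPSC and 119.7, 83.8 and 96.1 in endoderm, so the nucleus level moved more. Its ratio changed by -2.68, and by -2.06 with the GC trend removed.

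PILRB, an activating immune receptor, was among the 12 by its size, but 1 of its endoderm cytoplasm libraries was at 0. Its endoderm cytoplasm levels were 10.0, 0 and 8.90 scaled CPM, its SE was 1.00 and its edgeR adjusted p 0.0392. It stayed called in 3 of 12 fits without 1 library, and was -2.49 with the GC trend removed (edgeR adjusted p = 0.114). PVRIG2P, a pseudogene that also fell (-3.16), lies within the span of PILRB on the same strand (chromosome 7, 100352360 to 100353692 within 100352176 to 100367733, GRCh38), so reads may be divided between them.

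The other falls were LMNTD2-AS1 (-3.17), an antisense RNA, MST1P2 (-2.84), a pseudogene with a near-identical coding copy, ACHE (-2.75), the acetylcholinesterase, LY6G5B (-2.62), a member of the LY6 family, and EMILIN2 (-2.57), a secreted glycoprotein of elastic fibers. They and PVRIG2P ran from -1.99 (ACHE) to -2.51 (LMNTD2-AS1) with the GC trend removed. Counting by strand is not given in the sources used here, so LMNTD2-AS1 cannot be told apart from its sense partner. In the fit on shared Ensembl transcripts ACHE was -0.82 and COQ4 -0.69, both no longer called.

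**Figure D4:**
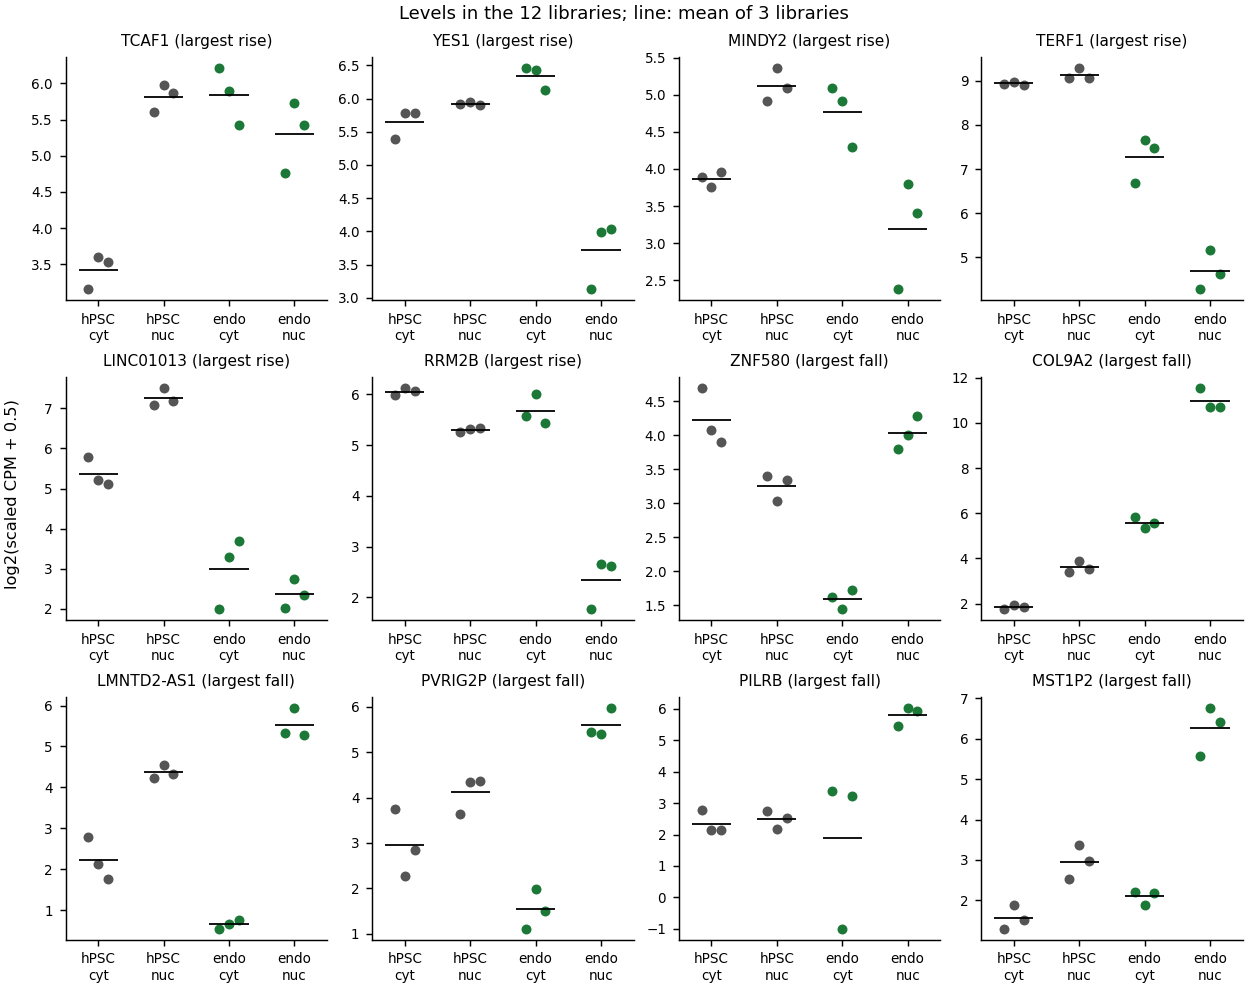
Levels of the 6 largest rises and 6 largest falls in each of the 12 libraries (y axis, log2 of scaled CPM plus 0.5; x axis, cell type and fraction), with lines at the mean of 3 libraries. In YES1 and RRM2B the endoderm nucleus libraries lie below all others, and in COL9A2 and MST1P2 above all others.

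Beyond the coding genes, ratio changes were spread over gene types. Of all genes tested, 14.0% were called higher and 12.2% lower, and no class was tested against these shares. Of 545 long noncoding RNAs tested, 33 were called higher and 53 lower, and of 139 pseudogenes 8 and 19. Coding genes gave 1563 higher and 1309 lower of 10651. Genes whose protein starts with a hydrophobic stretch, a simple stand-in for a signal peptide, gave 208 higher and 243 lower of 1664. Their RNA leaned to the nuclear pellet in both cell types, with a median ratio of -1.58 in hPSC and -1.66 in endoderm, against 0.23 and 0.23 for other coding genes.

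Groups of genes were described by their counts and by their median change minus that of all genes (-0.06). Such a median says where a list lay among the genes and was not tested. The counts stand against all genes, of which 14.0% were called higher and 12.2% lower. With the GC trend removed these shares were 4.66% and 4.4%. On total counts without TMM, 2821 of 11566 genes were higher and 252 lower.

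Among pluripotency genes, 7 of 18 tested were higher and 1 was lower (background 14.0% and 12.2%), with a relative median of 0.75. With the GC trend removed the relative median was 0.56, and 4 were higher, TERF1 and LIN28B among them. LIN28B, which blocks let-7 maturation, had 115.2, 151.3 and 157.6 scaled CPM in hPSC cytoplasm and 62.2, 58.5 and 60.3 in hPSC nucleus. Its endoderm levels were 120.6, 144.3 and 104.1 in cytoplasm and 6.73, 15.4 and 17.9 in nucleus. The cytoplasm levels overlap between the cell types and the nucleus levels do not, and its ratio went from 1.23 to 3.19 (change 1.96 ± 0.36, edgeR adjusted p = 0.00211; 1.36 with the GC trend removed). USP44, a deubiquitinase of stem cells, changed by 2.13 ± 0.51 (edgeR adjusted p = 0.00834), and by 1.13 with the GC trend removed, where it was not called (edgeR adjusted p = 0.111).

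TDGF1, the co-receptor of NODAL, went from -0.81 to 0.33 (change 1.14 ± 0.26, edgeR adjusted p = 0.0064), and its change was 0.61 with the GC trend removed, not called. POU5F1, the core factor of pluripotency, leaned to the cytoplasm in both cell types, with ratios of 1.37 and 1.06, and its change of -0.30 did not pass the test. The member that was lower was ZSCAN10, a zinc finger factor, at -1.14 ± 0.29, and at -0.41, not called, with the GC trend removed. LIN28B, TDGF1 and POU5F1 are named here after their values were seen. Of the 22 listed genes with a row in either table, SOX2, UTF1, FOXD3-AS1 and LNCPRESS1 had none in endoderm.

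Of the definitive endoderm regulators, 8 of 20 could be tested. STC1, a secreted hormone, was called higher: its ratio went from -2.84 to -1.23 (change 1.62 ± 0.26, edgeR adjusted p = 0.00102; 1.08 with the GC trend removed). KIT, the stem cell factor receptor and a surface marker of endoderm, leaned to the nuclear pellet in both cell types, with ratios of -3.75 and -3.19. The change for MIXL1, a factor of the primitive streak, was -1.91 ± 0.69 and missed the threshold (edgeR adjusted p = 0.0523). Its hPSC levels were near the limit of detection, at 0.55 to 1.04 scaled CPM in cytoplasm and 0 to 0.21 in nucleus.

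In the NODAL, activin and WNT pathway, through which the endoderm medium acts, 6 of 32 genes were higher and 3 lower (11 and 1 on total counts without TMM). At 18.8% and 9.38%, these shares are near the 14.0% and 12.2% of all genes. LGR4, a receptor for R-spondins, went from -2.25 to -0.54 (change 1.71 ± 0.45, edgeR adjusted p = 0.0132; 1.09 with the GC trend removed). SKIL, a repressor of SMAD signalling, rose by 1.49 ± 0.36 and had a value of 0.01, not called, with the GC trend removed. SMAD7, the inhibitory SMAD, fell by 0.84 on the log2 scale and stayed called in 3 of 12 fits without 1 library, with a value of -0.34, not called, with the GC trend removed. The ligand NODAL, named after its values were seen, was at 1.29 to 2.42 scaled CPM in hPSC cytoplasm and 2.70 to 2.99 in hPSC nucleus. In endoderm it was at 9.39 to 11.4 in cytoplasm and 67.8 to 110.7 in nucleus, and its ratio went from -0.66 to -3.04 (change -2.38 ± 0.36, edgeR adjusted p = 0.00078; -1.94 with the GC trend removed). ACVR2B, an activin receptor also named after its values were seen, rose from -0.72 to 0.74 (change 1.46 ± 0.32, edgeR adjusted p = 0.00557; 1.14 with the GC trend removed). LEFTY1, the NODAL antagonist, was the other called fall, but it was at most 1.11 scaled CPM in hPSC and its SE was 1.02. It was -2.27 and not called with the GC trend removed.

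Matrix genes leaned most to the nuclear pellet of the lists of nuclear-encoded genes, with a median ratio of -3.76 in hPSC and -4.29 in endoderm. Their ratio was lower in 20 of 52 genes and higher in 3, with a relative median of -0.50 (9 lower and 5 higher on total counts without TMM). Lower calls were 38.5% of the list, against 12.2% of all genes. Their median transcript GC content was 53.6%. With the GC trend removed, 6 were lower and 3 higher and the relative median was -0.46, so fewer passed while the median stayed close. COL18A1, which gives rise to endostatin, had 28820, 11770 and 13460 scaled CPM in endoderm nucleus and 284.4, 222.5 and 223.8 in endoderm cytoplasm. In hPSC it had 1511, 2053 and 1860 in nucleus and 102.5, 89.4 and 96.0 in cytoplasm. Both fractions were higher in endoderm without overlap, and the ratio changed by -1.97 ± 0.44 (edgeR adjusted p = 0.0064; -1.14 with the GC trend removed, adjusted p = 0.054).

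FN1, fibronectin, made up 3.06% to 3.53% of the endoderm nucleus counts and 0.047% to 0.06% of the hPSC nucleus counts. Its ratio of -4.98 in hPSC and -5.64 in endoderm differed by -0.66 ± 0.41, which did not pass the test. COL14A1 (2.62) and THBS2 (2.56), both chosen after their values were seen, rose while their levels fell in both fractions: COL14A1 went from 120.1, 160.2 and 148 scaled CPM in hPSC nucleus to 3.81, 3.71 and 3.81 in endoderm nucleus. THBS4, a thrombospondin, was the third that rose, by 0.93 ± 0.31 (edgeR adjusted p = 0.0404), and stayed called in 4 of 12 fits without 1 library. COL14A1 (2.37), THBS2 (2.69) and THBS4 (1.25) were also called with the GC trend removed.

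Adhesion genes, the integrins, cadherins and protocadherins, gave 6 higher and 4 lower of 44, near the background of 14.0% and 12.2%. ITGA6, the laminin receptor chain, had 375.3, 540.7 and 484.4 scaled CPM in hPSC nucleus and 37.6, 73.4 and 76.9 in endoderm nucleus. Its cytoplasm levels were 27.4, 37.1 and 41.1 in hPSC and 12.9, 19.9 and 17.5 in endoderm, and the ratio changed by 1.82 ± 0.37 (edgeR adjusted p = 0.00352; 1.41 with the GC trend removed). ITGA7, another laminin receptor chain, moved the opposite way. It had 194.2, 250.5 and 226.7 in hPSC nucleus and 434.9, 348 and 289.9 in endoderm nucleus, with a change of -1.89 ± 0.28 (edgeR adjusted p = 0.000612; -1.298 with the GC trend removed). DSC2, a desmosomal cadherin, changed by 1.65 and ITGAE, the integrin chain of resident T cells, by -2.06, which on the authors' TPM was 0.32. DSC2 was 0.68, not called, and ITGAE -1.74 with the GC trend removed. As CPM of the library total, DSC2 averaged 93.3 in hPSC and 408 in endoderm nucleoplasm, against 59.5 and 43.7 in nucleus.

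Genes of ER translocation and folding gave 10 higher and 3 lower of 44, 18 and 0 on total counts without TMM, and 2 and 1 with the GC trend removed. In all genes 14.0% were higher and 12.2% lower, against 22.7% and 6.82% of the list, and on total counts 91.8% of all called genes were higher. SEC63, of the translocon, went from -1.12 to 0.63 (change 1.76 ± 0.31, edgeR adjusted p = 0.0018; 0.78 with the GC trend removed). SPCS3, of the signal peptidase, rose by 1.73 ± 0.32 and by 0.43 with the GC trend removed, where it was not called. MANF and SDF2L1, both ER stress proteins, fell by 1.06 and 1.23 on the log2 scale. Neither was called with the GC trend removed, at -0.72 and -0.48. Their transcripts held 54.4% and 65.5% GC, against 39.4% in SEC63 and 35.8% in SPCS3.

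Cholesterol synthesis genes gave 5 higher and 5 lower of 27 (10 and 0 on total counts without TMM). Each share was 18.5%, against 14.0% of all genes higher and 12.2% lower. The others called were SCD, CYP51A1 and SQLE, higher, and LSS, EBP and FDPS, lower. MSMO1, the sterol methyl oxidase, had 17.2, 26.5 and 24.6 scaled CPM in hPSC cytoplasm and 165.3, 143.3 and 110 in endoderm cytoplasm. In the nucleus it had 52.9, 46.5 and 68.6 in hPSC and 55.5, 90.8 and 103.9 in endoderm, so the cytoplasm level moved more. The change was 2.03 ± 0.34 (edgeR adjusted p = 0.0014; 0.95 with the GC trend removed). SC5D, the next desaturase, rose by 1.52, and PMVK and MVD, kinase and decarboxylase of the mevalonate steps, fell by 1.17 and 1.12 on the log2 scale. PMVK stayed called in 5 of 12 fits without 1 library. SC5D was 0.51, PMVK -0.59 and MVD -0.40 with the GC trend removed, none of them called. In that fit TM7SF2, SREBF2, MSMO1, SREBF1 and SQLE were called, all higher.

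Genes that handle RNA in the nucleus formed 3 lists. Of the SR proteins, TRA2 and CLK kinases, splicing regulators known for transcripts with retained introns, SRSF5, CLK3 and CLK2 fell among 17, while on total counts without TMM 2 members rose and none fell. Lower calls were 17.65% of the list, against 12.2% of all genes. The called members with the GC trend removed were SRSF6, SRSF5 and SRSF2, all lower, and the relative median went from 0.07 to -0.35. SRSF5 had 297.1, 193.9 and 196.6 scaled CPM in hPSC cytoplasm, 229.1, 259.6 and 203.5 in hPSC nucleus, 160, 168.5 and 160.1 in endoderm cytoplasm and 224.9, 541.3 and 443.2 in endoderm nucleus. Its ratio changed by -1.298 ± 0.37 (edgeR adjusted p = 0.0199; -1.36 with the GC trend removed), in 8 of 12 fits without 1 library. CLK3 fell by 1.19 on the log2 scale, and on shared Ensembl transcripts its value was 1.26. CLK3 was -0.64 and not called with the GC trend removed.

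Of the 27 export factors, DDX39B, NXF1, DDX39A and MCM3AP fell, and on total counts without TMM 2 members fell and 1 rose. Lower calls were 14.8% of the list, near the 12.2% of all genes. With the GC trend removed, DDX39B, NXF1, DDX39A, THOC1 and ZC3H11A fell. NXF1, the export receptor itself, had 63.5, 57.0 and 57.8 scaled CPM in hPSC cytoplasm and 59.7, 68.3 and 67.9 in hPSC nucleus. Its endoderm levels were 54.8, 50.8 and 55.8 in cytoplasm and 148.6, 138.2 and 131.1 in nucleus. The endoderm nucleus libraries lie above the other 9, and the ratio changed by -1.24 ± 0.19 (edgeR adjusted p = 0.000873; -0.94 with the GC trend removed). As CPM of the library total, NXF1 averaged 57.7 in hPSC and 40.1 in endoderm nucleoplasm, and 103 and 173 in chromatin. The nucleoplasm thus did not rise with the nucleus. DDX39B, the helicase that loads NXF1, turned from 0.60 to -0.68 (change -1.28 ± 0.25, edgeR adjusted p = 0.00293; -1.16 with the GC trend removed). Of 30 nuclear pore genes, NDC1 (1.25), NUP58 (1.05), SEH1L (0.84) and TPR (0.75) rose and AAAS (-0.91) and NUP85 (-0.63) fell, the last with a value of 0.02 on the authors' TPM. The shares of 13.3% higher and 6.67% lower compare with 14.0% and 12.2% of all genes. NUP58 stayed called in 4 and NUP85 in 3 of 12 fits without 1 library. On total counts without TMM 10 nuclear pore genes rose and none fell. No nuclear pore gene was called with the GC trend removed, where NDC1 was 0.37 and NUP58 0.36, and the relative median went from 0.44 to -0.09. Of 24 hnRNPs, HNRNPH2 was the 1 called, at 1.22 (4.17% higher, against 14.0% of all genes). This count depended on the fit: DESeq2 called 5 hnRNPs higher and none lower, and total counts without TMM 8 and none. Without endoderm nucleus replicate 1, 6 were higher and 1 lower. With the GC trend removed HNRNPH2 was 0.56 and not called, and 1 other hnRNP was called lower.

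Long noncoding RNAs known for the nucleus gave 4 higher (OIP5-AS1, JPX, SNHG14 and TUG1) and 1 lower of 9. Shares of this short list were 44.4% and 11.1%, against 14.0% and 12.2% of all genes, and its median transcript GC content was 41.6%. MALAT1 was lower in the nucleus than in the cytoplasm libraries of hPSC: it had 227.5, 246 and 193.1 scaled CPM in cytoplasm and 77.3, 102.9 and 82.1 in nucleus. The parts of the nucleus differed from this. As CPM of the library total, MALAT1 averaged 819 in hPSC nucleoplasm and 137 in chromatin, against 232 in cytoplasm and 81.6 in nucleus. So these ratios do not place MALAT1 in the cytoplasm of hPSC. In endoderm it had 96.4, 145.4 and 80.9 in cytoplasm and 54.8, 347.8 and 112.9 in nucleus, where the libraries differ widely. The ratio changed by -2.02 ± 0.63 (edgeR adjusted p = 0.0294), in 5 of 12 fits without 1 library, and by -2.78 with the GC trend removed. OIP5-AS1 rose by 1.61 and SNHG14 by 1.196, and with the GC trend removed SNHG14 was called (0.79) and OIP5-AS1 (0.62), JPX (0.25) and TUG1 (0.22) were not. In that fit the list gave 1 higher and 2 lower, MALAT1 among the lower.

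Host genes of small nucleolar RNAs, whose spliced transcripts are mostly noncoding, gave 2 higher and 6 lower of 27, 3 and 0 on total counts without TMM, and 2 and 5 with the GC trend removed, with a relative median of -0.17 and -0.55. With TMM the shares were 7.41% higher and 22.2% lower, against 14.0% and 12.2% of all genes. ZFAS1 had 343.9, 197.1 and 188 scaled CPM in hPSC cytoplasm, 223.4, 227.9 and 216.5 in hPSC nucleus, 90.8, 84.5 and 90.7 in endoderm cytoplasm and 16.8, 19.3 and 21.3 in endoderm nucleus. Its change of 2.09 ± 0.29 (edgeR adjusted p = 0.000535) was 2.47 with the GC trend removed and 0.39, not called, on shared Ensembl transcripts. SNHG1 went the other way, from -0.14 to -1.71 (change -1.57 ± 0.40, edgeR adjusted p = 0.0114; -2.16 with the GC trend removed). SNHG15 fell by 1.34 on the log2 scale, with a value of 0.10 on the authors' TPM and -1.35, called, with the GC trend removed.

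Immediate early genes and MYC, whose short-lived transcripts are induced by signals, gave 7 lower and none higher of 25, 2 lower and 2 higher on total counts without TMM, and 3 lower (JUN, FOS and IER3) with the GC trend removed. Lower calls were 28.0% of the list, against 12.2% of all genes. JUN, a subunit of AP-1, turned from 1.29 to -0.55. It had 20.3, 21.1 and 26.4 scaled CPM in hPSC cytoplasm, 11.0, 8.42 and 8.39 in hPSC nucleus, 43.4, 37.9 and 35.4 in endoderm cytoplasm and 65.2, 50 and 56.1 in endoderm nucleus. The change was -1.84 ± 0.26 (edgeR adjusted p = 0.000509; -1.38 with the GC trend removed). The parts of the nucleus differed from this in hPSC. As CPM of the library total, JUN averaged 33.1 in hPSC nucleoplasm and 41.4 in chromatin, against 23.7 in cytoplasm and 8.68 in nucleus. The endoderm averages were 24.7, 48.9, 45.6 and 39.1. So the turn of JUN is read from the nucleus libraries only. IER3, an early response gene, changed by -1.54 ± 0.34, and by -0.999 with the GC trend removed (edgeR adjusted p = 0.0499).

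Genes of translation and the respiratory chain leaned to the cytoplasm in both cell types. Cytosolic ribosomal proteins had a median ratio of 1.55 in hPSC and 1.07 in endoderm. RPS21, RPS27, RPS28, RPL41 and RPS26 fell among 86, and on total counts without TMM 5 rose and none fell. Lower calls were 5.81% of the list, below the 12.2% of all genes. RPS21 and RPS27 fell by 1.77 and 1.57 on the log2 scale, and none of the 86 was called with the GC trend removed. The values of RPS21 and RPS27 were highest in hPSC cytoplasm replicate 1, at 999.4 and 2203 scaled CPM against 257.8 to 380.5 and 569.9 to 824.9 in the other hPSC cytoplasm libraries. RPS21 stayed called in 7 and RPS27 in 5 of 12 fits without 1 library. On total counts without TMM, nuclear-encoded respiratory chain genes gave 11 higher and 2 lower of 78. With TMM 2 were higher (2.56%, below the 14.0% of all genes) and 9 lower (11.54%, near the 12.2% of all genes). Among them were NDUFA3 (-2.13; -1.67), ATP5ME (-1.98; -1.601, not called), NDUFA5 (1.79; 0.52, not called) and NDUFS1 (0.83; -0.04, not called), the second value in each case with the GC trend removed. Mitochondrial ribosomal proteins gave 2 higher (MRPL19, 1.77, and MRPS30, 0.80) and 6 lower, MRPL23 (-1.28) and MRPL53 (-1.08) among them, of 76, and 12 higher and 0 lower on total counts without TMM. With TMM the shares were 2.63% and 7.89%, against 14.0% and 12.2% of all genes. MRPL23 stayed called in 7 and MRPL53 in 3 of 12 fits without 1 library. MRPL53 had 52.7 scaled CPM in hPSC cytoplasm replicate 1, against 23.6 and 25.05 in the other hPSC cytoplasm libraries. MRPL53 was 0.13 on the authors' TPM. MRPL19 was called with the GC trend removed (0.72), and MRPS30 (0.53), MRPL23 (-0.57) and MRPL53 (-0.89) were not.

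Translation factors gave 6 higher and 4 lower of 44 (13 and 0 on total counts without TMM), from EIF1AX (1.71) and EIF3E (1.45) to EIF4G1 (-1.10) and EIF6 (-0.98). None of these 4 was called with the GC trend removed. EIF4G1 stayed called in 6 of 12 fits without 1 library. The shares of 13.6% and 9.09% of the list lay near the 14.0% and 12.2% of all genes. Of 18 glycolytic enzymes, HK2 rose (0.82) and ENO2 fell (-0.71; 0.15 on the authors' TPM), and on total counts without TMM 2 rose and none fell. Each share was 5.56%, below the shares of all genes. HK2 stayed called in 5 and ENO2 in 6 of 12 fits without 1 library. HK2 was 0.93, called, and ENO2 -0.35, not called, with the GC trend removed. The 13 mitochondrially encoded mRNAs had a median ratio of -5.52 in hPSC and -6.16 in endoderm, and edgeR and DESeq2 called none, with 2 at an unadjusted p under 0.05 in edgeR.

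Mitosis genes gave 7 higher and none lower of 37, with a median transcript GC content of 43.2%. The higher share was 18.9%, against 14.0% of all genes and 24.8% of the genes in the GC bin from 42.2% to 44.7%. DESeq2 called 10 of the 37 higher and 5 lower. HMMR and ECT2, both of the spindle and cell division, rose by 1.68 and 1.56, and neither was called with the GC trend removed, where the called members were CCNB1 (-1.24) and ASPM (-1.10). Cytosolic chaperones gave HSP90AA1 (1.43) and HSPA4 (1.29) higher and HSPA1A (-1.29) and HSPA8 (-1.16) lower among 5 called of 21, and of these 4 only HSPA8 was called with the GC trend removed (-1.40). On total counts without TMM the chaperones gave 9 higher and 1 lower. With TMM the shares were 9.52% higher and 14.3% lower, against 14.0% and 12.2% of all genes. HSP90AA1 stayed called in 7 of 12 fits without 1 library. Of 19 replication-dependent histones, H4C11 fell, by 1.74 on the log2 scale, and on total counts without TMM 1 rose and none fell. Lower calls were 5.26% of the histones, against 12.2% of all genes. H4C11 was -1.07 and not called with the GC trend removed. ZNF zinc finger genes, 336 in number, gave 44 higher (13.1%) and 25 lower (7.44%), against 14.0% and 12.2% of all genes. They gave 6 and 16 with the GC trend removed, where 4.66% of all genes were called higher and 4.4% lower. ZNF813 (2.14) and ZNF271P (1.92) rose most among them, and ZNF783 (-1.97) fell most after ZNF580. These were 1.31, 1.03 (not called) and -1.51 with the GC trend removed.

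Markers of other lineages with a row in both tables were few. Of 3 mesoderm markers tested, PDGFRA was called, lower in endoderm, and KDR and TBX6 were not called. Unlike PDGFRA, KDR and TBX6 had lower levels in endoderm. KDR averaged 426 CPM of the library total in hPSC nucleus and 128 in endoderm nucleus, and 25.2 and 17.9 in cytoplasm. TBX6 averaged 4.23 and 2.42 in nucleus and 7.02 and 2.65 in cytoplasm. Of 2 neuroectoderm markers tested, NES was called and OTX1 was not. PDGFRA, a receptor of mesoderm and primitive endoderm, had 1.73, 1.70 and 1.85 scaled CPM in hPSC cytoplasm and 0.97, 1.51 and 1.87 in hPSC nucleus. In endoderm it had 6.02, 4.41 and 3.26 in cytoplasm and 32.2, 30.1 and 39.4 in nucleus. Both fractions were higher in endoderm without overlap, the nucleus more so, and the ratio changed by -3.16 ± 0.41 (edgeR adjusted p = 0.000352; -3.82 with the GC trend removed). NES, nestin, a filament protein of neural progenitors, had 403.9, 465.2 and 447 in hPSC nucleus and 1245, 1105 and 1036 in endoderm nucleus, with a change of -1.88 ± 0.23 (-1.33 with the GC trend removed).

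**Figure D5:**
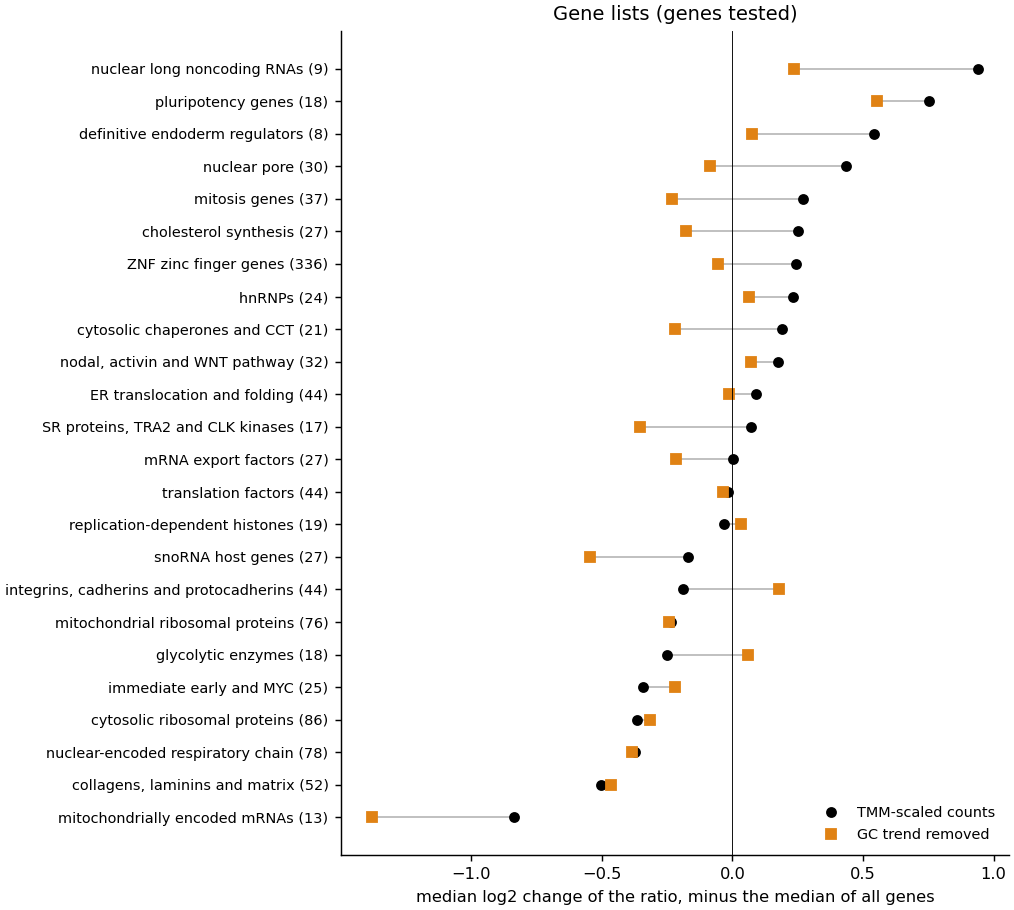
Median log2 change of the cytoplasm-nucleus ratio of each gene list, minus the median of all genes (x axis), with the number of genes tested in brackets. Black circles are TMM-scaled counts and orange squares the fit with the GC trend removed. Pluripotency genes stay above 0.5 and matrix genes below -0.4 in both, and mitosis genes change sign.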

How the data were processed

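RNA of 12 libraries was used. The authors deposited expected counts per assembled transcript, 1 table per cell type assembly. The submitters' processing notes name STAR, RSEM and hg38; versions, filters and strand settings are not given in the sources used here. The planned test assumed raw counts, so the values were rounded to whole numbers and summed per Ensembl gene; transcripts without an Ensembl gene (0.338% to 9.36% of a library) were left out. The authors' deposited TPM served as an alternative, as log2 of TPM plus 1 in limma 3.58.1. There was 1 column, in another cell type's table, that matched no sample and was not used.

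Genes in both tables were fitted in edgeR 4.0.16 (R 4.3.3) with 4 group means: TMM, filterByExpr with a minimum count of 10, quasi-likelihood F test of the interaction, two-sided, Benjamini-Hochberg adjustment over all genes tested. The SE is the change divided by the square root of F. Gene features came from GENCODE release 29. The fits were tested on simulated data. Alternatives used DESeq2 1.42.0, other scalings, filters and libraries, and a fit with each library's lowess trend (span 0.3) of log2 CPM on transcript GC content removed as an offset, added after the data were seen.

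Named genes had to be called, to have a symbol outside the mitochondrial genome, a mean of at least 10 scaled CPM, at least 5 in 1 fraction of each cell type and no overlap of library pairs (log2 of scaled CPM plus 0.5): the 12 largest in each direction. From each list, besides, up to 2 called members in each direction. Other genes were chosen after their values were seen. Members and lists were chosen with earlier results of these data known. Replicate numbers were checked for pairing: correlations of same-numbered deviations were 0.231, 0.128 and 0.034 in hPSC and -0.16, 0.274 and -0.515 in endoderm, so no pairing was used.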

Additional observations from a re-analysis of the deposited data

Results flagged for a closer look

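The effect of fraction differed between endoderm and hPSC in 3033 genes, by an edgeR test of the difference itself. Among the named genes with the largest changes, those with a higher cytoplasm-nucleus ratio in endoderm were TCAF1 (2.95), YES1 (2.88), MINDY2 (2.84), TERF1 (2.81), LINC01013 (2.68), RRM2B (2.64), EDIL3 (2.61), SRGAP2C (2.61), TTC3 (2.59), LRAT (2.53), HINT3 (2.5) and CENPK (2.5), as log2 changes. Those with a lower ratio were ZNF580 (-3.69), COL9A2 (-3.55), LMNTD2-AS1 (-3.17), PVRIG2P (-3.16), PILRB (-2.99), MST1P2 (-2.84), ACHE (-2.75), CFAP410 (-2.72), DNAJC15 (-2.69), COQ4 (-2.68), LY6G5B (-2.62) and EMILIN2 (-2.57).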

How the results depend on the processing

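The count of 3033 genes ran from 1515 (without endoderm cytoplasm replicate 2) to 3672 (without endoderm nucleus replicate 2) when 1 library was left out. Genes higher in endoderm ran from 773 to 2041, genes lower from 742 to 1709, and the 155 turned genes from 93 to 201. Endoderm cytoplasm replicate 1 also mattered, with 1787 genes called without it. Of the 3033 genes, 1437 were called in each of the 12 fits. Removing the GC trend, an alternative added after the data were seen, gave 1030 genes, 530 higher and 500 lower. Summing only Ensembl transcripts listed in both tables gave 1221 of 8829 genes, 702 higher and 519 lower, with 66 turned. Total counts without TMM gave 2821 higher and 252 lower, the authors' TPM 3747 and 235, and upper-quartile factors 865 lower. Requiring a 2-fold change as well gave 811 lower. DESeq2 called 3721, a fit with all 4 cell types 4061, and the fit without mitochondrially encoded genes 2955. A minimum count of 50 gave 3045 and no filter 3028. The fit with the replicate block gave 2435 genes, but the replicate numbers share only a number. Among 86 named genes, the sign turned for MRPL53 (0.13), ENO2 (0.15), NUP85 (0.021), ITGAE (0.32) and SNHG15 (0.10) on the authors' TPM, for NDUFS1 (-0.04) with the GC trend removed and for CLK3 (1.26) on shared transcripts. The cause of these shifts was not tested. With the GC trend removed, 47 of the 86 stayed called in the same direction, and 41 of the 74 that could be tested on shared transcripts. Leaving out 1 library kept 68 to 83 of them called. Low levels limit the ratios of genes near 0 scaled CPM in 1 fraction, and counting intervals cover no spread between cultures.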
